A study of Caenorhabditis elegans with 4 samples.

Results

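The regions described here are the 230 LIN-53 peaks on chromosome II of the nematode Caenorhabditis elegans, out of 1221 peaks that the authors' combined list places on all 6 chromosomes. The members are every row of that list on chromosome II, with no filter on score. Chromatin immunoprecipitation and sequencing (ChIP-seq) was carried out on late embryos of the wild-type strain N2, hermaphrodites kept at 20 °C. There were 4 samples, 2 in which LIN-53 was precipitated with SDQ2370, a polyclonal antibody raised in rabbit and affinity-purified, and 2 of input DNA, numbered 1 and 2 in each group. All 4 samples share strain, stage and handling: embryos from bleached adults stood 3.5 hours in M9 buffer, were frozen and ground whole, and were fixed 10 minutes in 1% formaldehyde. All cell types of the embryo are therefore pooled, and a peak cannot be assigned to one of them.

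LIN-53 is a histone-binding protein with WD40 repeats, the worm relative of the mammalian RbAp46 and RbAp48 proteins. It serves in more than 1 chromatin complex. One is DRM, which represses target genes together with the retinoblastoma-like protein LIN-35, and another is NuRD, which removes acetyl groups from histones and remodels nucleosomes. Worm autosomes are divided into a central region, rich in conserved and broadly expressed genes, and 2 arms, which recombine more often and hold more repeats and more methylated lysine 9 of histone H3.

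Each ChIP sample has a peak list of its own, and positions are on the WormBase WS220 build. The lists hold 1 score per peak, set by the authors in a unit not stated in the lists or labels. No read counts are given, so the depth behind a peak is unknown, and scores are used to rank and describe peaks within a list. The 2 replicates stood apart: replicate 1 had the higher score at most sites that both contained, and the lists differed along the chromosome, as described below. The labels do not say whether they came from separate cultures, so their difference may be technical. The input samples have no list here, so no value could be set against input.

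Replicate 1 had 189 peaks on chromosome II and replicate 2 had 203. These covered 309.9 kb and 383 kb, against 477 kb for the 230 combined peaks. The called span of the chromosome ran from base 1 to base 15275860, the last base of any peak, and 3.13% of it lay in combined peaks. The density of combined peaks was 15.1 per Mb (95% exact Poisson interval 13.2 to 17.1), and the replicates averaged 12.8 ± 0.648 peaks per Mb (SD, n = 2). A typical combined peak was 1771 bp wide, with quartiles of 1364 and 2512 bp and extremes of 949 and 6440 bp. Widths of over 3000 bp were given for 35 of the 229 peaks that have a start. They made up 15.2% of the 230 peaks, against 10.3% on the other autosomes (I, III, IV and V).

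Combined scores on chromosome II ran from 50.01 to 2843, with a median of 192 and quartiles of 91.8 and 501. The distribution was steep: 68 peaks scored under 100, 29 scored at least 1000, and the 10 highest carried 23.2% of the summed score. No chromosome II peak reached the ceiling of 3100 at which scores of other chromosomes stop, in any of the 3 lists. In replicate 1 the median score was 291 and the highest 2897, and in replicate 2 the median was 102 and the highest 2747. Score and width were only loosely related over the peaks of a list, with Spearman's rho of 0.17 in the combined list (229 peaks), 0.31 in replicate 1 (189 peaks) and 0.32 in replicate 2 (202 peaks), given as a description.

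The 10 combined peaks with the highest scores on the chromosome were all contained in both replicates. Of these, 4 lay in the left segment of the called span, 1 in the centre and 5 in the right segment (segments of equal length), and their widths ran from 1149 to 5067 bp. The strongest, from 15007978 to 15011540, scored 2843 in the combined list, 2702 in replicate 1 and 1424 in replicate 2. Replicate 2 split it into 2 peaks, and the weaker of them scored 71.0. The next, from 14250581 to 14252346, scored 2737 in the combined list, 2487 in replicate 1 and 658.6 in replicate 2. The peak from 11756851 to 11761917 was the widest of the 10 and scored 2586 in the combined list, 2299 in replicate 1 and 533 in replicate 2. In all 3 lists these sites ranked among the 10 highest of the chromosome.

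The peak from 4998722 to 5000487, at the inner edge of the left segment, was the highest of replicate 1 with a score of 2897. It ranked only 22nd in replicate 2, with 413, and scored 2540 in the combined list. The peak from 649953 to 652043 scored 2293 in the combined list, 2016 in replicate 1 and 685 in replicate 2. The peak from 14357457 to 14358818 scored 1997 in the combined list, 1927 in replicate 1 and 648 in replicate 2. The peaks from 1320003 to 1321313 and from 13908149 to 13909319, with combined scores of 1968 and 1905, were alike in the replicates: 1998 and 2009 in replicate 1, and 446 and 417 in replicate 2. Both were narrow, at 1311 and 1171 bp. The peak from 23286 to 25278 was the first on the chromosome with a given start and scored 1645 in the combined list, 1351 in replicate 1 and 496 in replicate 2. The strongest peak of the centre, from 7944752 to 7945900, was 1149 bp wide and scored 1635 in the combined list, 1520 in replicate 1 and 549 in replicate 2. Of the 10 sites, 8 were among the 10 highest of replicate 1 and 6 among the 10 highest of replicate 2, so the top of the combined order followed replicate 1 more closely.

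The 3 widest peaks had middling scores. The widest, from 10574437 to 10580876, spanned 6440 bp and ranked 76th by score, with 379.7. The peak from 693511 to 699585 spanned 6075 bp and ranked 117th in the combined list, with 191. The peak from 2844895 to 2850673 spanned 5779 bp and ranked 109th, with 206. At the bottom of the list, the peaks from 12821882 to 12823245 and from 11015520 to 11016712 scored 50.01 and 50.22 and were contained in replicate 2 alone. The peak from 14034183 to 14036619, with 51.04, was contained in neither replicate.

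Support by the replicates asks which combined sites each ChIP sample contains by itself, counted as an overlap of at least 1 bp. The combined and replicate lists come from the same samples and are not independent. Both replicates contained 96 of the 230 combined peaks (41.7%, 95% Wilson interval 35.6% to 48.2%), where 37.7% of the combined peaks of all chromosomes were so contained. Replicate 1 alone contained 68 (29.6%, against 34.1% over all chromosomes) and replicate 2 alone 47 (20.4%, against 18.9%). Neither contained the remaining 19 (8.26%, against 9.34%). These shares lay near the background in each class. Intervals here cover counting error only. The lowest scores on chromosome II were 50.01 in the combined list, 50.09 in replicate 1 and 50.14 in replicate 2. Signal below these scores is not given, so a site missing from a list is one without a listed peak.

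Score separated these classes almost completely at the top of the chromosome II list. The 55 highest-scoring peaks were all contained in both replicates. The first exception, from 13156387 to 13157629, ranked 56th with a combined score of 538 and a replicate 1 score of 767, and had no replicate 2 peak. In the highest score quartile, from 510.3 to 2843, both replicates contained 56 of 57 peaks. In the next quartile they contained 31 of 58, and in the one from 92.3 to 191.8 they contained 9 of 57. In the lowest quartile both contained 0 of 58, which allows a share of up to 5.17%. The lowest-scoring peak in both, from 4092088 to 4094927, scored 94.5. The median score was 610 for peaks in both replicates, 152 for replicate 1 alone, 92.3 for replicate 2 alone and 67.7 for neither. Width followed another order, with a median of 1932 bp for peaks in both, 1458 bp for replicate 1 alone, 1960 bp for replicate 2 alone and 2010 bp for neither. The highest-scoring peak in neither replicate, from 2785620 to 2788514, scored 213, and the nearest replicate peaks lay 57041 bp away in replicate 1 and 39082 bp away in replicate 2. On the other autosomes, combined peaks of replicate 1 alone scored up to 2537 and those of replicate 2 alone up to 1059. The highest on chromosome II were 538 and 298, so a high score did not go with both replicates everywhere.

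**Figure D1:**
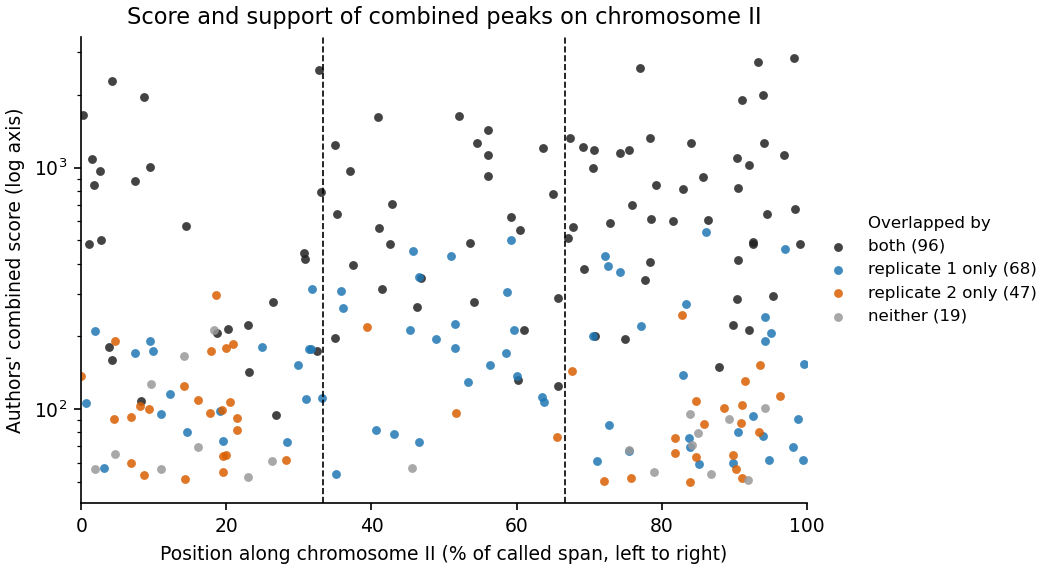
Authors' score of each of the 230 combined peaks on chromosome II (log axis) against its position in percent of the called span, coloured by the replicate lists that overlap it; dashed lines divide it into 3 equal segments. The 55 highest points are all black (both replicates), and only 3 of the 47 peaks of replicate 2 alone lie between the dashed lines.

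Set directly against each other, the replicates shared about equal parts of their lists. On chromosome II, 95 of 189 sites of replicate 1 had a counterpart in replicate 2 (50.3%, 43.2% to 57.3%, against 44.4% over all chromosomes). In the other direction, 98 of 203 sites had one (48.3%, 41.5% to 55.1%, against 47.1%). Both count the same overlap from either side, so their mean of 49.3% ± 1.41 (SD, n = 2) is no spread of independent values. Shared peaks scored higher than the rest, with a median of 679.5 against 119 in replicate 1 and 156 against 75.4 in replicate 2. The combined list contained 163 of the 189 replicate 1 peaks (86.2%, against 83.7% over all chromosomes) and 146 of the 203 replicate 2 peaks (71.9%, against 69.8%). The 26 replicate 1 peaks it lacked had a median score of 67.1, and the 57 replicate 2 peaks it lacked had one of 61.2. Of the 96 combined peaks in both replicates, 74 were wider than the peaks of either replicate under them (their mean width, where there were several), and 49 enclosed those peaks from end to end.

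Over the 92 peaks that paired one to one, the replicate 1 score was the higher in 83. The median log2 ratio of replicate 1 over replicate 2 was 1.74, with quartiles of 1.10 and 2.45 and an SD of 1.15 over peaks. The paired medians were 673 in replicate 1 and 159.5 in replicate 2. The higher replicate 1 score was not particular to chromosome II: on the other autosomes the median log2 ratio was 1.90 over 352 pairs. A score may grow with depth, which is unknown, so the size of this ratio is a property of the lists and was not tested as a difference in enrichment. The orders of the 2 lists went together with Spearman's rho 0.64 over the 92 pairs, a description across peaks that share a caller and a genome. Peak centres lay close: the median distance between paired midpoints was 78.2 bp, and 67 of 92 were within 200 bp.

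The 9 pairs that ran the other way were led by the peak from 12843239 to 12846490 in replicate 1, which scored 428 there and 1524 in replicate 2, a log2 ratio of -1.83. It ranked 73rd on the chromosome in replicate 1 and 2nd in replicate 2. The peak from 2845556 to 2850421 in replicate 1 scored 76.5 there and 194 in replicate 2, and is the site of one of the 3 widest combined peaks named above. At the far end, the peak from 6535551 to 6536666 scored 989 in replicate 1 and 54.6 in replicate 2, a log2 ratio of 4.18. By position, 4 of the 22 pairs in the left segment, 2 of the 27 in the centre and 3 of the 43 in the right segment scored higher in replicate 2.

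**Figure D2:**
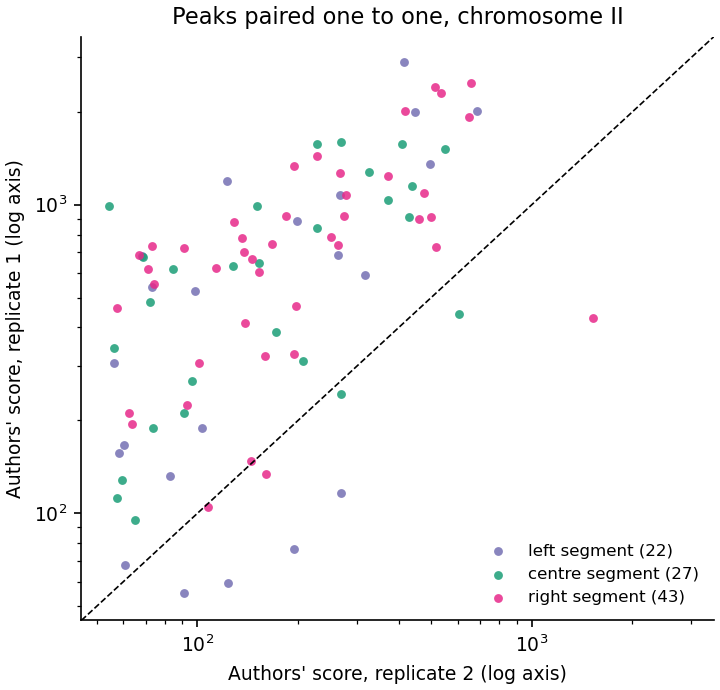
Authors' score in replicate 1 against replicate 2 for the 92 peaks on chromosome II that overlap one to one (both axes log), coloured by segment of the span; the dashed line marks equal scores. 83 points lie above the line, and the point far to the right, at 1524 in replicate 2, lies below it.

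Some strong sites were in 1 replicate list and not in the other. In replicate 2 the highest peak of the chromosome was of this kind: from 693511 to 699585, with a score of 2747. The combined list has the same borders for it but a score of 191, and the nearest replicate 1 peak lay 41600 bp away. The next of replicate 2 alone was the peak at the left tip, which ended at 918 and scored 557.6. It was followed by a pair from 1033616 to 1036745 and from 1037651 to 1039586, with 454 and 300.9, whose combined scores were 92.3 and 59.99. The strongest of replicate 2 alone in the centre, from 6020898 to 6023537, scored 284. Thus 4 of the 5 highest peaks of replicate 2 alone lay in the left segment.

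The 5 highest of replicate 1 alone scored less far from the rest of their list, ranking 39th to 65th on the chromosome. They were the site from 13156366 to 13157652 named above, with 767, and those from 9056593 to 9057934 with 658, from 11021567 to 11022747 with 592, from 7780689 to 7782056 with 521 and from 6973634 to 6974772 with 514. Each had a combined peak, with scores of 429.8 to 538. Of these 5, 3 lay in the centre. The nearest replicate 2 peak was 1305 bp from the peak at 9056593 and 112326 bp from the one at 7780689.

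The position of the peaks asks whether LIN-53 sites are spread evenly between the centre of the chromosome and its arms, taken here as 3 segments of equal length, with borders after 5091953 and 10183906. The combined list was sparse in the centre. The left segment held 77 peaks (33.5%), the central segment 53 (23.0%, 18.1% to 28.9%) and the right segment 100 (43.5%). Over all chromosomes the central share was 28.7%. The densities were 15.1, 10.4 and 19.6 peaks per Mb from left to right. The central share was below 33.3% by an exact binomial test that counts each peak as independent (adjusted p = 0.0020 over 8 tests within the chromosome). Close peaks are not independent, so such p-values are too small. With peaks less than 10 kb apart counted as 1, the central share was 24.6% of 175 and still passed (exact binomial test, adjusted p = 0.026). That count removes dependence between such close peaks only. Among combined peaks with scores above the median of the whole list the call was lost, at 29.9% of 127 peaks (exact binomial test, adjusted p = 0.52).

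The replicates differed in this. Replicate 1 had 52, 55 and 82 peaks from left to right, a central share of 29.1% (23.1% to 35.9%; 34.4% over all chromosomes) that did not pass (exact binomial test, adjusted p = 0.28). Replicate 2 had 82, 32 and 89 peaks, a central share of 15.8% (11.4% to 21.4%; 22.9% over all chromosomes; exact binomial test, adjusted p = 1.89e-07). The mean central share was 22.4% ± 9.43 (SD, n = 2), whereas the right share was nearly the same in both, at 43.6% ± 0.323 (SD, n = 2). The left segment held fewer peaks than the right in replicate 1 (52 against 82; exact binomial test, adjusted p = 0.024). The 77 against 100 of the combined list and the 82 against 89 of replicate 2 did not pass (adjusted exact p = 0.16 and 0.65).

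**Figure D3:**
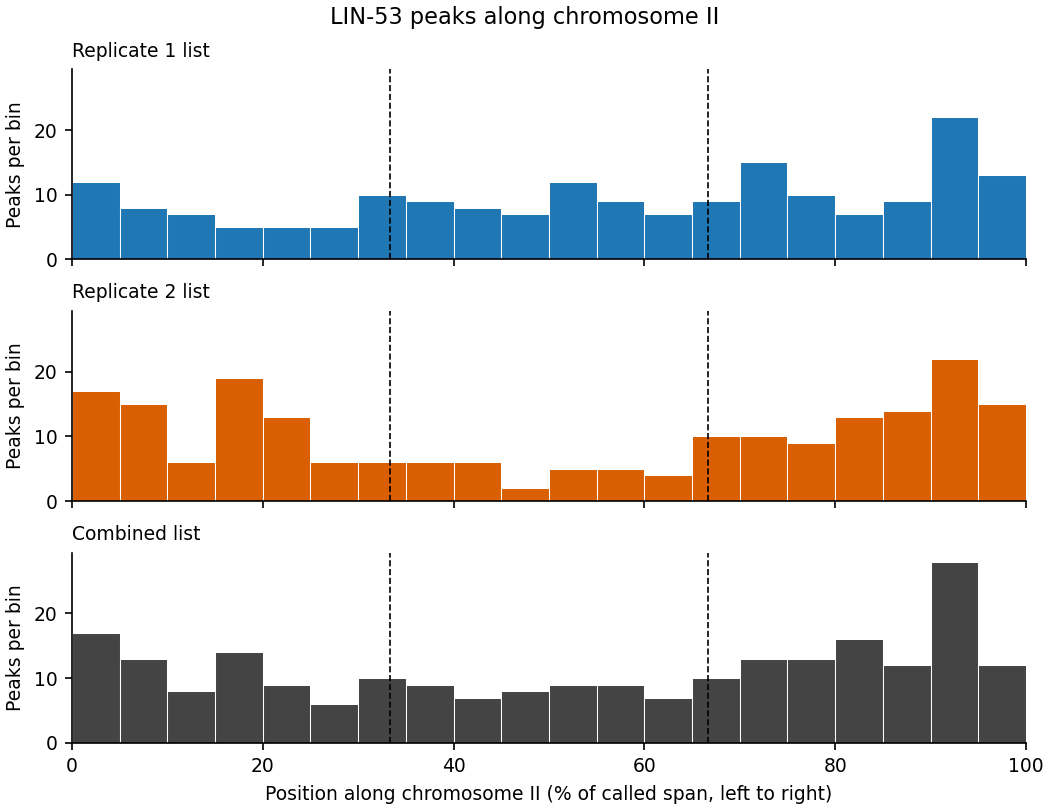
Number of peaks in 20 equal bins of 5% of the called span of chromosome II in the replicate 1, replicate 2 and combined lists; dashed lines divide it into 3 equal segments. The bin from 90% to 95% is the highest in all 3 lists, with 22, 22 and 28 peaks, and replicate 2 has 2 to 6 peaks in each of the 5 bins from 40% to 65%.

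Shared peaks mark the same sites in both lists, so this contrast between the replicates could lie only in peaks of 1 replicate alone. The test of those peaks therefore restates the difference between the lists and is no separate support for it. Over all chromosomes the central share differed in the same direction, at 34.4% in replicate 1 and 22.9% in replicate 2. Of the 94 replicate 1 peaks without a replicate 2 peak, 28 were central (29.8%, 21.5% to 39.7%), and of the 105 replicate 2 peaks without a replicate 1 peak, 5 were central (4.76%, 2.05% to 10.7%; Fisher's exact test, adjusted p = 7.5e-06 over the same 8 tests). Of the shared peaks, 27 were central in either list. Seen from replicate 2, 27 of its 32 central peaks were shared (84.4%, 68.2% to 93.1%), against 26 of 82 in the left segment (31.7%) and 45 of 89 in the right (50.6%). Seen from replicate 1 the shares were 24 of 52 in the left segment (46.2%), 27 of 55 in the centre (49.1%) and 44 of 82 in the right segment (53.7%). Among combined peaks, both replicates contained 27 of 53 in the centre (50.9%) and 69 of 177 in the outer segments (39.0%), a difference that did not pass (Fisher's exact test, adjusted p = 0.20).

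In the combined list, fewer of the central peaks than of the outer ones had low scores, which the replicate lists showed less or not at all. The median combined score in the centre was 288, against 142 in the left segment and 209 in the right, and 7 of 53 scored under 100 (13.2%), against 27 of 77 (35.1%) and 34 of 100 (34.0%). In replicate 1 the share under 100 was 21.8% in the centre, against 34.6% on the left and 23.2% on the right, with medians of 311, 156 and 329 in that order. In replicate 2 it was 43.8% in the centre, against 54.9% on the left and 46.1% on the right, with medians of 152, 89.1 and 105. The centre of each replicate list thus lay close to its right segment in the share of low scores. The strongest combined peaks were in the outer segments, where the highest scores were 2540 on the left and 2843 on the right, against 1635 in the centre. Of the 29 peaks with a score of at least 1000, 6 lay on the left, 7 in the centre and 16 on the right. Central peaks were the narrowest in median, at 1535 bp, against 1841 bp on the left and 1834 bp on the right. These score and width values are descriptions and were not tested.

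In full windows of 1 Mb, the combined list held 10 to 23 peaks, with a median of 14 over 15 windows. Replicate 1 held 5 to 20 and replicate 2 held 4 to 25. The sparsest windows of the combined list, with 10 each, began at 5000001, 7000001 and 8000001, and the densest, with 23 each, at 13000001 and 14000001. Over the 15 windows the replicate counts hardly went together, with Spearman's rho 0.11, a description over windows of 1 chromosome. The 2 windows with the largest difference between them adjoined, from 2000001 to 4000000, a stretch picked after its values were seen. Replicate 2 had 40 peaks there and replicate 1 had 13, and 35 of the 40 had no replicate 1 peak. Those 35 had scores of 50.14 to 224 and a median of 84.5, and the combined list contained 15 of them. The 70 peaks of replicate 2 alone on the rest of the chromosome had a lower median, 71.8, but scored up to 2747. Of those 70, the combined list contained 33. The 6 Mb from 4000001 to 10000000 were likewise picked after their values were seen. There the order of the replicates was the opposite, with 68 peaks in replicate 1 and 38 in replicate 2.

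The densest bin of the chromosome, from 13748275 to 14512067, held 28 combined peaks in 5% of the span, or 12.2% of the chromosome's peaks. Replicate 1 and replicate 2 had 22 peaks each there, the highest bin count in either list, and the other bins of the combined list held 6 to 17. Both replicates contained 13 of the 28, replicate 1 alone 6, replicate 2 alone 7 and neither 2. On the whole of chromosome II the shares were 41.7%, 29.6%, 20.4% and 8.26% in that order. Over all chromosomes they were 37.7%, 34.1%, 18.9% and 9.34%, and the split in the bin was not tested. Scores ran from 51.04 to 2737, and 6 of the 28 were at least 1000, so strong and weak sites stood side by side. The bin was picked after its values were seen.

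Peaks often had a close neighbour. Counting gaps of under 10 kb between edges, 95 of the 230 combined peaks (41.3%, 35.1% to 47.8%; 34.9% over all chromosomes) fell into 40 close groups: 29 pairs, 8 groups of 3, 2 of 4 and 1 of 5. The replicate lists had 27 groups with 61 peaks (32.3%, against 30.3% over all chromosomes) and 32 groups with 81 peaks (39.9%, against 34.3%). The median gap between neighbouring combined peaks was 36.1 kb, and the widest, 386 kb, ran between 9320210 and 9705852 in the centre. Of the groups, 15 lay on the left, 8 in the centre and 17 on the right. Grouped and single peaks had similar medians in score (179.7 against 199.7) and in width (1755 against 1801 bp). Support was mixed within groups: in 6 of 40 every peak was contained in both replicates, in 24 at least 1 peak was, and in 16 none was. This split was not set against the one that the share of all combined peaks in both replicates, 41.7%, would give by itself.

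The largest group was a run of 5 peaks from 13817243 to 13829592, 12.3 kb long, whose members nearly touched, with gaps of 33, 37, 30 and 41 bp. From left to right they were 1844, 3394, 1755, 1876 and 3340 bp wide and scored 285, 1098, 826, 413 and 80.6. Replicate 1 had the same 5 peaks, with scores of 327, 728, 739, 414 and 205 and gaps of 66 to 198 bp. Replicate 2 had the first 4, with 194, 516, 263 and 139 and gaps of 113 to 150 bp. The borders between the first 4 peaks thus recurred in all 3 lists, and the highest was the second peak in the combined and replicate 2 lists and the middle peak in replicate 1. Gaps of under 100 bp were rare elsewhere: the combined list had 6 among 229 gaps on chromosome II, 4 of them in this run, and 4 among 929 gaps on the other autosomes.

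Other large groups were built differently. That from 13903467 to 13915810 held 1 strong peak, at 1905, between 3 weak ones of 87.8, 51.98 and 104 that replicate 2 alone contained. That from 14383198 to 14408489 began with a peak of 1269 in both replicates, followed by peaks of 192, 101 and 240 of which replicate 2 contained none. The groups from 2155099 to 2172536 and from 2980516 to 2990969, 3 peaks each, had no peak in both replicates and no score above 166.4. In contrast, the group of 3 from 8560773 to 8572589 in the centre, named after its values were seen, had all 3 peaks in both replicates and scores of 921 to 1431. Close spacing therefore occurred among strong sites of both replicates as well as among weak sites that at most 1 replicate contained.

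**Figure D4:**
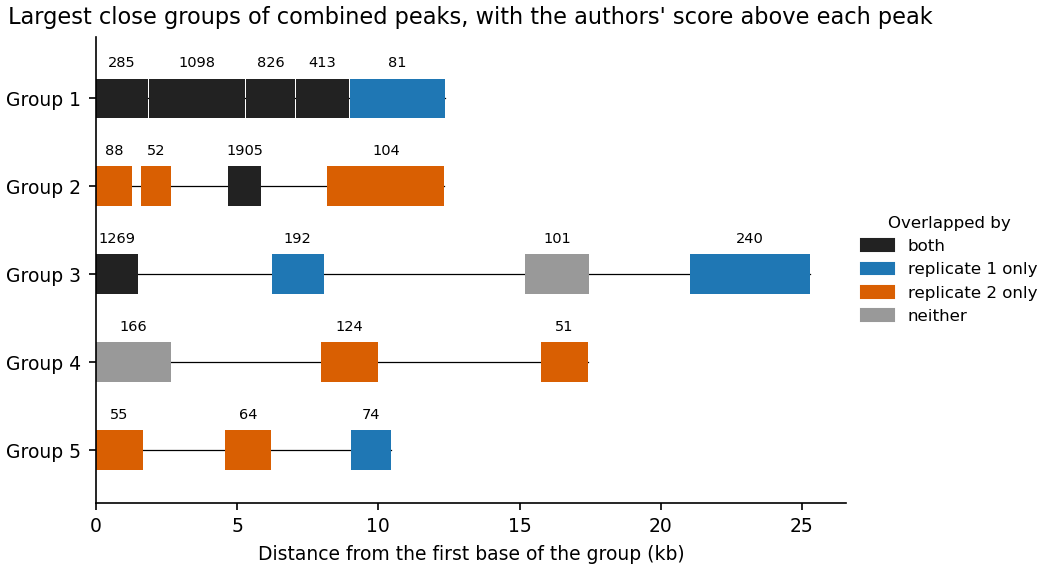
The 5 close groups of combined peaks on chromosome II with most members (ties by position), each drawn from its first base in kb, with bars to scale in width, coloured by the replicate lists that overlap each peak and labelled with the authors' score. In the first group 5 peaks nearly touch; in the second, 1 peak of 1905 stands between weak peaks of replicate 2 alone.

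At the ends of the chromosome the lists differed again. The left-tip peak, whose start is given as a dot, ended at 1045 in the combined list and scored 136 there. The first replicate 1 peak began at 23354. The last combined peak, from 15232242 to 15233350, scored 154 and was contained in replicate 1 alone, with 168. The last replicate 2 peak, from 15269012 to 15275860, was 6849 bp wide and scored 59.2, and sets the end of the called span.

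Set against the other autosomes (I, III, IV and V, 933 combined peaks), chromosome II showed no difference that passed over 13 tests, at an adjusted p under 0.05 by Fisher's exact tests of shares and exact binomial tests of density. At an unadjusted p under 0.05, 3 of the 13 passed. They were the central share of the combined list, 23.0% on II against 30.3% on the other autosomes (adjusted exact p = 0.12, odds ratio 0.69), the central share of replicate 2, 15.8% against 24.6% (adjusted exact p = 0.095, odds ratio 0.57), and the density of replicate 2, 13.3 against 10.9 peaks per Mb (adjusted exact p = 0.095). In replicate 1 the central share was also lower on II, at 29.1% against 35.7% (adjusted exact p = 0.23). The share in both replicates was 41.7% against 38.0% (adjusted exact p = 0.47), and the share in close groups was 41.3% against 35.0% (adjusted exact p = 0.23). A p that misses the threshold does not show that the chromosomes are alike. Scores and widths were not tested: the median combined score was 192 on II and 175 on the other autosomes, the median width 1771 and 1745 bp, and the share of peaks with a score of at least 1000 12.6% and 9.97%. Widths of over 3000 bp made up 15.2% of combined peaks on II and 10.3% on the other autosomes. The order was the same in replicate 1 (6.88% and 3.99%) and in replicate 2 (13.3% and 9.82%).

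**Figure D5:**
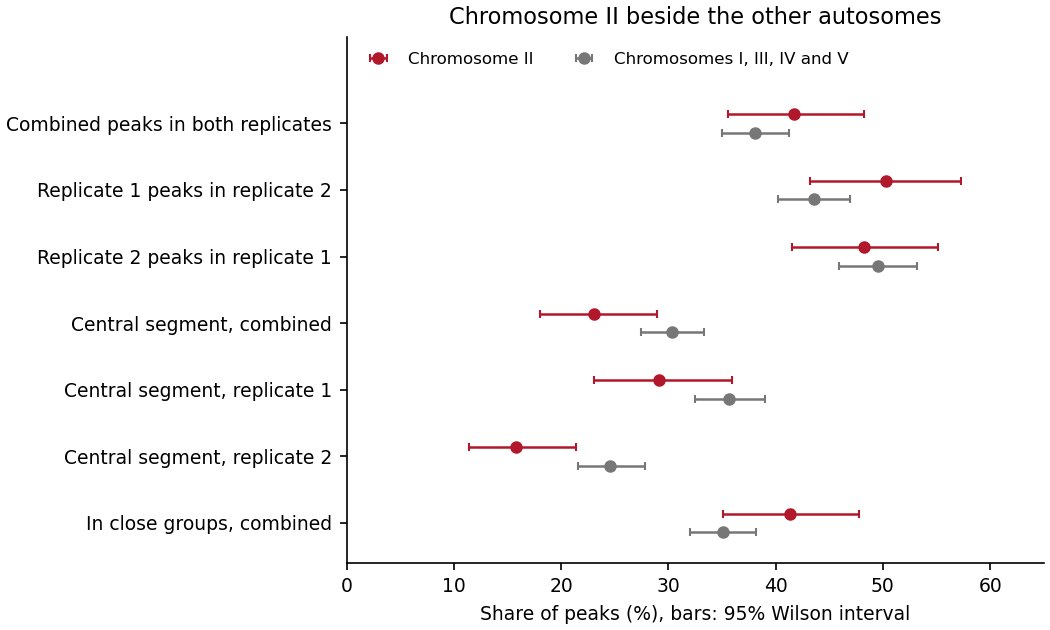
Share of peaks on chromosome II (red, above) and on chromosomes I, III, IV and V together (grey, below) for 7 measures, with 95% Wilson intervals that cover counting error only. The central share is lower on II in all 3 lists, 23.0% against 30.3% in the combined list, and no difference passed after adjustment.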

How the data were processed

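LIN-53 ChIP-seq peaks were taken as deposited: 1 list for each of 2 ChIP samples and 1 combined list. The score in each list is the authors' own, in a unit neither lists nor labels state. Positions are on WS220 and were lifted from another build, per the file headers. MA2C stands in the source column but MACS in the peak names, so which of them called the peaks is open. Reads were aligned with BWA, per the submitters' processing notes. Threshold, depth and the way of combining are not stated there. The 2 input samples entered no calculation.

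Rows on chromosome II were kept, and a dot as start was read as 1 and left out of widths. Peaks were shared at an overlap of at least 1 bp. The span ran from base 1 to the last base of any peak. Intervals are 95% Wilson or exact Poisson intervals. Two-sided exact binomial and Fisher's exact tests were adjusted by Benjamini-Hochberg within 2 families, chromosome II against the other autosomes (13 tests) and within chromosome II (8 tests), with a threshold of 0.05. They treat peaks as independent and measure no spread between samples. Overlap, grouping and tests were checked on simulated lists with independent peaks. Alternatives changed the overlap rule, score threshold, list, definition of centre, gap and comparison set.

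The named peaks are the 10 highest-scoring combined peaks in both replicates, the 5 highest of each replicate with no counterpart in the other, the 3 widest and 3 lowest-scoring combined peaks, the highest in neither replicate, the tip and last peaks, the 5 largest close groups, the widest gap, and the densest and sparsest windows; others are named outside this rule, after their values were seen. Members, lists and tests were chosen with earlier results of these data known. Gene features and sequence under the peaks were not analysed here. Calculations ran in Python 3.11.15 with scipy 1.17.1, numpy 2.4.6 and pandas 2.3.3, and figures in matplotlib 3.10.9.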

Additional observations from a re-analysis of the deposited data

How the results depend on the processing

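Under the alternatives, 59 of 75 values changed neither direction nor call, or moved by less than the counting error. One of these, the central share without the stretch from 2000001 to 4000000 (added after seeing the data), was bound to keep its direction, since the combined list is sparser there than in the outer segments as a whole. The central share on chromosome II lost its call in the replicate 1 list alone (29.1%, adjusted exact p = 0.28) and among combined peaks with above-median scores (29.9%, adjusted exact p = 0.52; the cause was not tested). Over lists with a replicate left out, it ran from 15.8% to 29.1%, the left share of outer peaks from 38.8% to 48.0% (past the threshold in replicate 1 alone), the share in close groups from 32.3% to 39.9%, and the density ratio to the other autosomes from 1.01 to 1.22. No combined list was remade. With X among the other chromosomes the density ratio was 1.29 and passed (adjusted exact p = 0.0092), since X holds only 58 combined peaks. With midpoints within 200 bp, 26.5% of combined peaks were in both replicates and 24.3% in neither, and the shared parts of replicates 1 and 2 came to 36.0% and 33.5%, as a stricter rule leaves fewer pairs. A further alternative kept, in each list, only peaks above the median score of that list. A combined peak can then lose its support because the replicate peak under it was removed. On this rule the share in replicate 2 only was 8.66% and the shared part of replicate 2 was 58.3%. Differences from the other autosomes that did not pass turned round for the share in neither and for the shared part of replicate 2. The share in neither was 24.35% against 24.33% by midpoints and 11.02% against 9.03% with every list so cut. Against the full replicate lists, 0 of 57 and 1 of 58 peaks of the 2 highest score quartiles on chromosome II were in neither. The shared part of replicate 2 was 33.5% against 32.7% by midpoints and 58.3% against 56.5% with every list so cut. With X included it was 48.3% against 46.7%. With every list so cut, both cut replicate lists contained 42.1% of the central and 49.4% of the outer combined peaks that were kept. This was the reverse of the main order, and neither order passed. No paired analysis was possible because no list of the input is at hand that a ChIP list with the same number could be paired with. The unknown depth limits every score.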

Other observations

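Comment lines in the lists mark 2 combined peaks on chromosome II as altered in internal structure when positions were moved between builds. The peak from 5660595 to 5663594 scored 966 in the combined list, 442 in replicate 1 and 604 in replicate 2, where it ranked 7th on the chromosome. It is 3000 bp wide in its row and 3001 bp in the comment. The peak from 7477969 to 7479977 scored 194 and had no replicate 2 peak within 324229 bp. Its width is 2009 bp in its row and 2008 bp in the comment.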
